A study of Mus musculus with 7 samples.

Results

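The genes described here are Mlx, its glucose-sensing partners Mlxip (MondoA) and Mlxipl (ChREBP), the targets Txnip and Arrdc4, and 5 genes of the Max network, which are Max, Myc, Mnt, Mxd4 and Mxi1. They were chosen by name, as the rows of the RPKM table whose gene symbol matches, and not by their values. Of the 10 genes, 8 had a row among the 11642 rows of the table, each of them a row of its own that was not joined to another gene. Mlxipl and Arrdc4 had no matching row and their expression was not analysed here. All 8 passed the filter on low values (mean RPKM of at least 0.5), as did 11086 rows in all.

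C2C12 cells are a mouse myoblast line that stops dividing and fuses into myotubes in low serum. Total RNA was sequenced on day 2 of differentiation from 2 samples treated with scramble siRNA (si-SCR) and 2 treated with siRNA #1 against the long non-coding RNA lnc-SMaRT (si-SMaRT). RNA recovered with probe set #1 against lnc-SMaRT, RNA recovered with LacZ probes and the input of the pull-down were sequenced in 1 library each. The study describes its RNA-Seq samples as independent populations of C2C12 cells, and the labels do not say whether samples with the same number share a population. In the sequenced samples the depletion rests on a single line and a single siRNA, and p-values measure the spread between these populations only.

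Mlx is a basic helix-loop-helix leucine zipper protein. It cannot activate transcription alone and pairs with MondoA or ChREBP, which sense phosphorylated glucose. The pairs bind E-boxes, in tandem at the carbohydrate response elements of genes such as Txnip and Arrdc4, whose alpha-arrestin products lower glucose uptake. Max is the corresponding partner in a parallel network, where Myc-Max pairs activate growth genes and pairs of Max with Mnt, Mxd4 or Mxi1 recruit the Sin3 corepressor to the same E-boxes. Mnt and Mxd4 can also pair with Mlx, which links both networks. MLX proteins have been described as activators of myokines in muscle cells, and the study followed Mlx mRNA as a partner of lnc-SMaRT.

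The E-box CACGTG was searched in the RefSeq promoters of GRCm38.p6 (250 bases before to 50 after each start), because it is the site that Mlx and Max dimers share. It reads the same on both strands, and 7.15% of the 32851 promoters hold it. Of the 10 genes, 9 were in the promoter table, with 12 promoters. An E-box was held by 6 of the 12 promoters, which belonged to 6 of the 9 genes. These sites are shown 5′ to 3′ on the strand of the gene, with the E-box in capitals and 10 bases on each side.
Mlx: tgggttggatCACGTGactgagcctc
Max: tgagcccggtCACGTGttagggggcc
Mnt: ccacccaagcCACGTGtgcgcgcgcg
Mxd4: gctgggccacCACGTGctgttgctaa
Mlxipl: ggctgccatcCACGTGctaaggagag
Arrdc4: aggtcctgtgCACGTGcactatggtg

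The site of Mlx lies at chr11:101087240-101087265 on the plus strand, with the first base of the E-box at position -40 from the RefSeq start, from which all positions here are counted. The E-box of Max, at chr12:76962236-76962261 on the minus strand, begins at -3 and so spans the RefSeq start, which lies upstream of the GENCODE start of Max given below. Those of Mlxipl (chr5:135089782-135089807, plus), Mnt (chr11:74830791-74830816, plus), Arrdc4 (chr7:68749416-68749441, minus) and Mxd4 (chr5:34187914-34187939, minus) begin at -98, -123, -193 and -219. The promoters of Mlxip, Txnip and Mxi1 in the table hold no CACGTG. Such a match is a description of the reference sequence and not of binding in these cells.

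Txnip is the best known target of MondoA and Mlx. A strict carbohydrate response element, an E-box CACGTG followed by any 5 bases and another CACGTG, was searched on both strands and found in 0 of the 32851 promoters. A looser form, CACGNG followed by any 5 bases and CNCGNG, was written after the promoter sequences had been seen, and 120 promoters (0.365%) hold it. Of the 12 promoters of the 9 genes in the table, 1 did, that of Txnip. Its site lies at chr3:96557862-96557898 on the plus strand and begins at -85, shown with the fixed letters of the motif in capitals.
Txnip: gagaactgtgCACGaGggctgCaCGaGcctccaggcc

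The siRNA lowered its target. The lnc-SMaRT row had RPKM values of 19.1 and 15.9 in si-SCR 1 and 2 and of 2.88 and 3.65 in si-SMaRT 1 and 2, and its log2 fold change was -2.39 (SE 0.28, adjusted p = 0.000882, limma with Benjamini-Hochberg adjustment over all 11086 rows). The effective library sizes, worked out from the RPKM steps, ranged from 11291255 to 14312935 reads. Of 9 muscle markers, 8 had a row, and their summed RPKM was 8338 and 8755 in si-SCR and 6297 and 4224 in si-SMaRT. Mymk, which encodes a fusion protein, had no matching row. Markers were matched by exact symbol, so a row under an older name would be missed. Of 6 markers of undifferentiated or cycling myoblasts, 5 had a row, with sums of 143 and 117 in si-SCR and 124 and 182 in si-SMaRT. Among the macrophage markers Cd68 had a row, at a summed RPKM between 0.788 and 1.13, and no marker of adipocytes, osteoblasts or endothelium had one. Gene by gene, 7 of the 8 muscle markers were lower in both depleted samples than in both controls, as were 20.4% of all rows. Myod1 overlapped, at 54.8 and 70.1 in si-SCR and 95.9 and 57.7 in si-SMaRT. The lowest adjusted p of the 8 in the limma fit was 0.106, for Ckm (log2 fold change -1.25), so no muscle marker passed. Ckm passed with the GC trend removed, as described below (adjusted p = 0.0252), and with voom (0.0320). Myog had a log2 fold change of -0.47 (adjusted p = 0.696, limma), and the study's qPCR found MyoD and Myog unaffected. Of the 5 myoblast markers 4 overlapped, and the cycling marker Mki67 was at 20.1 and 19.3 in si-SCR and 21.6 and 28.2 in si-SMaRT. Their part in the values below was not tested. In these bulk samples, fewer cells of a state and less RNA per cell cannot be told apart.

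Mlx mRNA was the most abundant of the 8 genes in the control cells. Its RPKM was 25.9 and 21.8 in the si-SCR samples, against 20.2 and 20.1 in the si-SMaRT samples. Both depleted samples lay below both controls, although si-SCR 2 exceeded si-SMaRT 1 by less than the gap within the controls. The means were 23.9 ± 2.89 and 20.1 ± 0.0996 (SD, n = 2 each). On the log2 scale the fold change was -0.24 (SE 0.26), with a 95% interval of -0.79 to 0.31 and an adjusted p of 0.857, and a change of Mlx mRNA was not detectable at this replication. Over 15 alternative settings the log2 fold change lay between -0.36 and -0.12 and the adjusted p between 0.341 and 1.00. The values rested on 656, 617, 456 and 574 reads in the same order of samples. The gene lies on the plus strand at chr11:101087277-101092207 (GRCm38, GENCODE M21), and its level in si-SCR exceeded that of 80.4% of all rows.

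Mlxip, which encodes the glucose sensor MondoA (chr5:123394798-123457932, plus strand), was far less abundant than its partner. Its RPKM was 0.790 and 1.17 in the si-SCR samples, against 1.34 and 1.06 in the si-SMaRT samples. The groups overlapped, with a log2 fold change of 0.28 (SE 0.34, 95% interval -0.43 to 1.00, adjusted p = 0.869). Mlx exceeded Mlxip 32.8-fold and 18.6-fold in the controls and 15.1-fold and 18.9-fold after depletion, a ratio of RPKM values that is already per length. The high ratio of si-SCR 1 came with the lowest Mlxip level, read from at least 82 reads, and the other 3 samples lay between 15.1 and 18.9.

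Txnip encodes the thioredoxin-interacting protein, an alpha-arrestin that removes glucose transporters from the membrane, and its transcript is widely used as a readout of MondoA-Mlx activity. The gene (chr3:96557957-96561883, plus strand) had RPKM values of 5.42 and 3.92 in si-SCR and 4.18 and 3.85 in si-SMaRT. si-SCR 1 was higher than the other 3 samples, which lay close together, and the groups overlapped. Txnip had a log2 fold change of -0.20 (SE 0.29, 95% interval -0.81 to 0.41, adjusted p = 0.895). Without si-SCR replicate 1 it was 0.0315, so the direction rested on that sample. The Txnip to Mlx ratio, between 0.180 and 0.209 in the 4 samples, overlapped between the groups too.

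**Figure D1:**
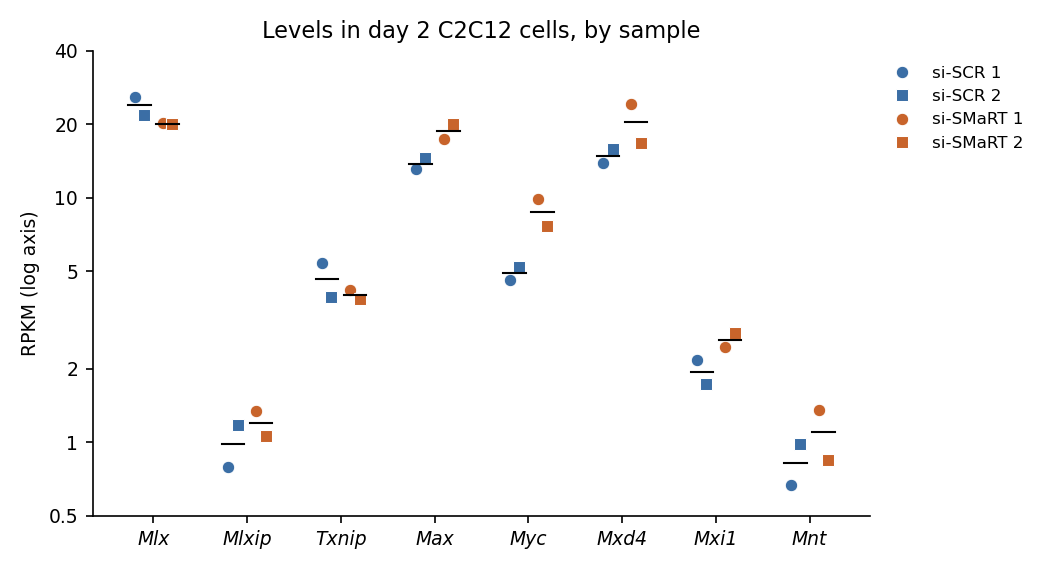
RPKM on a log axis for the 8 genes with a row, with 1 point per sample (blue si-SCR, orange si-SMaRT, circles sample 1, squares sample 2) and a black bar at each group's mean. Both Myc points of si-SMaRT (9.86 and 7.65) sit above both of si-SCR (4.60 and 5.22), while the Mlxip, Txnip and Mnt points of the groups overlap.

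Max, the shared partner of Myc and of the repressors, was lower than Mlx in both controls and closer to it in the depleted samples. Its RPKM was 13.1 and 14.5 in si-SCR and 17.4 and 20.1 in si-SMaRT, and the groups did not overlap. The log2 fold change of 0.44 (SE 0.26, 95% interval -0.12 to 1.00) did not pass the test (adjusted p = 0.662). The Max to Mlx ratio was 0.505 and 0.664 in the controls and 0.864 and 1.00 in the depleted samples, without overlap between the groups. The ratio was not tested. Max lies at chr12:76937269-76962201 on the minus strand.

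Myc, the activator of growth and ribosome genes that falls when myoblasts leave the cell cycle, had the largest log2 fold change of the 8 genes. Its RPKM was 4.60 and 5.22 in si-SCR and 9.86 and 7.65 in si-SMaRT, means of 4.91 ± 0.437 and 8.75 ± 1.56 (SD, n = 2 each). Every depleted sample lay above every control. Its log2 fold change of 0.81 (SE 0.28, 95% interval 0.22 to 1.40), or 1.76-fold, did not pass the limma test (adjusted p = 0.294). Of all rows, 1.64% had a higher log2 fold change. Over 15 alternative settings that of Myc lay between 0.63 and 0.99, and its adjusted p between 0.000614 and 1.00. At least 161, 204, 308 and 303 reads lay behind the values. The gene is at chr15:61985391-61990374 on the plus strand.

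The 3 repressor genes had log2 fold changes above 0 that did not pass the test. Mxd4 (chr5:34173883-34187720, minus strand) is expressed as cells differentiate, and it had RPKM values of 13.9 and 15.8 in si-SCR and 24.2 and 16.8 in si-SMaRT. The groups did not overlap, but si-SMaRT 2 was close to si-SCR 2, and the gap between the depleted samples (-0.52 on the log2 scale) was larger than the log2 fold change of 0.44 (SE 0.28, adjusted p = 0.691). Mxi1 (chr19:53310518-53375810, plus strand), a relative of Mxd4, had RPKM values of 2.17 and 1.73 in si-SCR and 2.44 and 2.80 in si-SMaRT. Its groups did not overlap either, with a log2 fold change of 0.42 (SE 0.30, adjusted p = 0.752). Mnt (chr11:74830920-74845725, plus strand), a broadly expressed antagonist of Myc, was lowest of all, at 0.666 and 0.979 in si-SCR and 1.36 and 0.846 in si-SMaRT. Mnt values overlapped between groups and rested on 39 to 71 reads, with a log2 fold change of 0.37 (SE 0.35, adjusted p = 0.834).

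Ratios within a sample set the activator against its antagonists. Myc was present at 0.330 and 0.329 of the Mxd4 level in the controls and at 0.408 and 0.455 after depletion, so both depleted samples were above both controls. Against Mxi1, the Myc ratio was 2.12 and 3.02 in si-SCR and 4.04 and 2.73 in si-SMaRT, which overlapped. Against Max it was 0.351 and 0.360 in si-SCR and 0.565 and 0.381 in si-SMaRT, with si-SMaRT 2 close to the controls. These ratios are descriptions of the RPKM values and were not tested.

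In si-SCR the order of mean levels was Mlx, Mxd4, Max, Myc, Txnip, Mxi1, Mlxip and Mnt. The neighbours Mxd4 and Max, Myc and Txnip, and Mlxip and Mnt overlapped in their sample values, and the other neighbours did not. In si-SMaRT the order was Mxd4 (20.5 ± 5.18, SD), Mlx (20.1 ± 0.0996), Max (18.8 ± 1.88), Myc, Txnip (4.01 ± 0.233), Mxi1, Mlxip and Mnt. The first 3 overlapped in their sample values, as did Mlxip and Mnt, whereas Myc and Txnip, which overlapped in the controls, no longer did.

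Over the 8 genes, 0 passed an adjusted p of 0.05 in the limma fit, where 0.505% of all rows passed, and 0 passed with voom on the recovered reads, where 0.929% did. At an unadjusted p under 0.05 the count was 1, Myc, against 9.09% of all rows. The groups did not overlap for 5 of the 8 genes (62.5%), 4 higher and 1 lower in si-SMaRT, against 40.7% of all rows, of which 20.2% were higher and 20.4% lower. The log2 fold change was above 0 for 6 of the 8 and its median was 0.39, beside 0.02 for all rows tested (quartiles -0.23 and 0.24).

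The depleted samples differed from each other along the GC content of the genes. By the study's read statistics, si-SMaRT 1 also lost a larger share of read pairs to the rRNA and tRNA filter than any other sample. The part of this loss in the gap between the depleted samples was not tested. Across 10956 genes the log2 difference of si-SMaRT 2 over si-SMaRT 1 had a Spearman correlation of -0.84 with GC content, and that of si-SCR 2 over si-SCR 1 one of 0.38, across genes that share their libraries. The 8 genes spread along this trend. Mnt, with a GC content of 59.5%, had a gap of -0.63 between the depleted samples, and Mxi1, at 46.3%, had one of 0.19. Mlx, at 50.6%, had a gap of -0.01, and Mxd4, with a GC content close to it at 49.9%, one of -0.52.

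**Figure D2:**
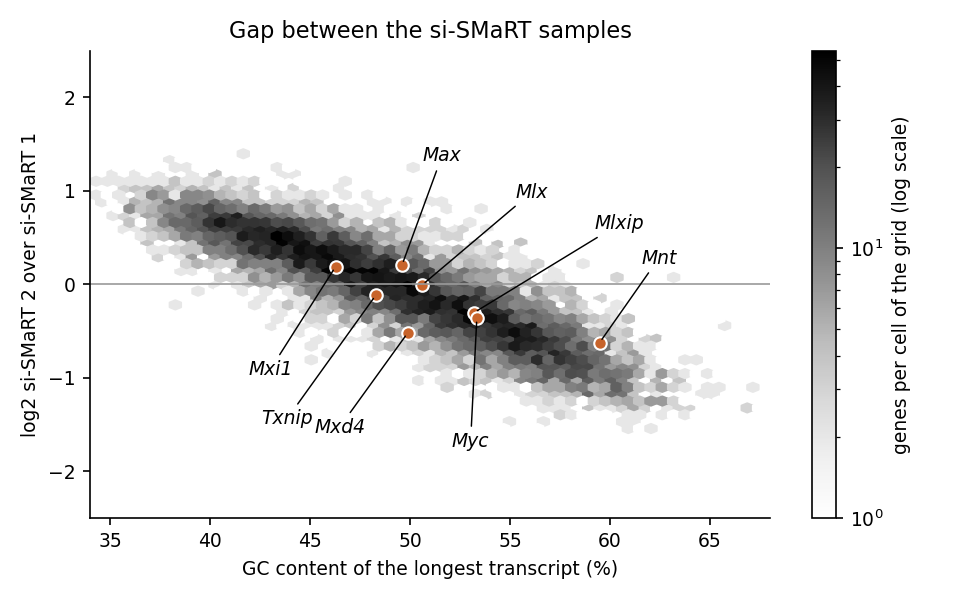
Log2 difference between the si-SMaRT samples against the GC content (%) of each gene's longest transcript, with grey hexagons for the number of genes and orange points for the 8 genes. Mxi1 and Max lie above 0, Mlx close to 0 (-0.01) and the other 5 below.

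The log2 fold change between the groups also had a Spearman correlation with GC content, of -0.29. When each sample's trend with GC content was removed, the intervals narrowed and the fold changes moved little. The trend was fitted in each sample, so a group difference that follows GC content was removed with it. Myc passed, with a log2 fold change of 0.87 (SE 0.14, 95% interval 0.55 to 1.18, adjusted p = 0.0152), 1 of 8 genes where 4.84% of 10956 passed. Max had a log2 fold change of 0.43 (SE 0.14, adjusted p = 0.112) and Mxd4 one of 0.43 (SE 0.17, adjusted p = 0.168). Mlx stayed at -0.24 (SE 0.14, 95% interval -0.56 to 0.09, adjusted p = 0.341). Whether Myc passed thus differed between settings.

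**Figure D3:**
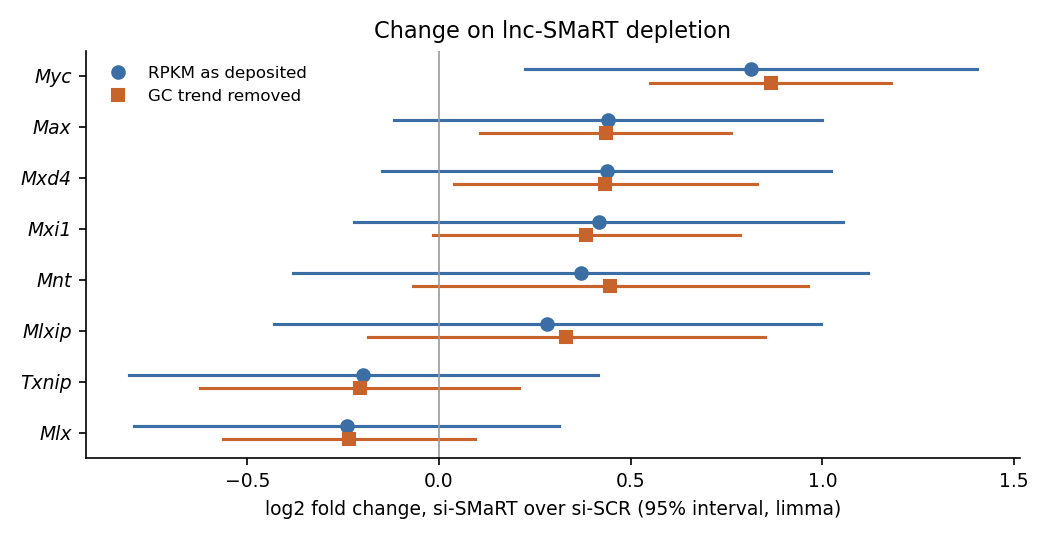
Log2 fold change of si-SMaRT over si-SCR with its 95% interval from limma, on the RPKM values (blue circles) and with the GC trend removed (orange squares). Myc lies at 0.81 and 0.87, the only gene of the 8 whose intervals exclude 0 in both fits, and Mlx at -0.24 in both.

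The depleted samples also decided which genes passed when 1 of them was left out, a fit in which the remaining si-SMaRT sample is assumed to vary as the controls do. Without si-SMaRT replicate 1, Myc (log2 fold change 0.63, adjusted p = 0.0254) and Max (0.54, adjusted p = 0.0347) passed, but so did 26.2% of all rows. Without si-SMaRT replicate 2, Myc (0.99, adjusted p = 0.000614) and Mxd4 (0.70, adjusted p = 0.0153) passed, with 8.49% of all rows. With either si-SCR sample left out, 0 of the 8 passed. Over 15 settings the adjusted p of Max lay between 0.0347 and 1.00 and that of Mxd4 between 0.0153 and 1.00.

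Other genes of the Max network were read from a list of the remaining family members. Of 4 tested, 0 passed, and the median log2 fold change was 0.19. Mycl, the L-Myc gene, was more abundant than Myc in each sample, with RPKM values of 14.5 in both controls and 26.8 and 22.3 after depletion. Both depleted samples were higher, with a log2 fold change of 0.75 (SE 0.26, adjusted p = 0.307 in the limma fit). With the GC trend removed it was 0.83 (SE 0.14, adjusted p = 0.0210), and the adjusted p lay between 0.000991 and 1.00 over 15 settings. The Mycl to Myc ratio was 3.15 and 2.78 in si-SCR and 2.72 and 2.92 in si-SMaRT, overlapping between the groups. The repressors Mxd1 (log2 fold change 0.15) and Mxd3 (-0.13) and the large Max partner Mga (0.22) had groups that overlapped. Mycn was not analysed here.

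The Sin3 corepressor, which Mnt, Mxd and Mxi1 proteins recruit, is built from deacetylases and scaffold subunits. Of its 8 genes, 0 passed, with a median log2 fold change of 0.03. The histone-binding subunits Rbbp7 (0.17) and Rbbp4 (0.0019), the deacetylase Hdac2 (-0.0009) and Sap30 (-0.16) were the most abundant. The alpha-arrestins related to Txnip, namely Arrdc1 (-0.06), Arrdc2 (-0.26) and Arrdc3 (-0.03), had overlapping groups, and 0 of 3 passed.

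Txnip binds thioredoxin, and 0 of the 5 thioredoxin genes passed. Thioredoxin itself, Txn1, had RPKM values of 304 and 249 in si-SCR and 186 and 285 in si-SMaRT, which overlapped. The reductase gene Txnrd1 was the only one of the 5 (20%) whose groups did not overlap, beside 40.7% of all rows, at 45.2 and 51.0 against 69.5 and 64.0, with a log2 fold change of 0.47 (SE 0.26, adjusted p = 0.618). Log2 fold changes of the mitochondrial Txn2 and of Txnrd3 were -0.36 and 0.04.

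Glucose transport and phosphorylation supply the signal that MondoA senses. Of 6 such genes 4 were tested, 0 passed, and 3 of the 4 were higher in both depleted samples than in both controls, beside 20.2% of all rows, with a median log2 fold change of 0.39. The transporter gene Slc2a1 (GLUT1) had RPKM values of 13.5 and 16.1 in si-SCR and 24.1 and 17.0 in si-SMaRT, with a log2 fold change of 0.45 (SE 0.28, adjusted p = 0.678). Log2 fold changes of the hexokinase genes Hk2 and Hk1 were 0.32 and -0.02. Pfkfb3, a regulator of glycolysis, had one of 0.63 (SE 0.33, adjusted p = 0.606) at RPKM values of 0.596 and 0.702 in si-SCR, both below those in si-SMaRT. Both others were under the filter. The transporter gene Slc2a3 (GLUT3) had RPKM values of 0.142 and 0.107 in si-SCR and 0.159 and 0.280 in si-SMaRT, and the muscle transporter gene Slc2a4 (GLUT4) was at 0.477 and 0.509 in si-SCR and 0.331 and 0.281 in si-SMaRT.

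Genes that carbohydrate response elements control in liver and fat went in both directions. Of 12 tested, 0 passed, 6 had a log2 fold change above 0 and 6 below, and the median was 0.05. The desaturase genes Scd2 and Scd1 were the most abundant. Scd2 had RPKM values of 271 and 345 in si-SCR and 232 and 228 in si-SMaRT, with a log2 fold change of -0.41 (SE 0.27, adjusted p = 0.717), and Scd1 one of -0.38. The depleted samples were lower than the controls for both genes. Of the 12 genes, the groups did not overlap for 2 that were lower and 2 that were higher (33.3%), beside 40.7% of all rows. Fasn, the fatty acid synthase gene, overlapped widely at 19.2 and 33.3 against 46.0 and 21.9. Acly, which supplies its acetyl-CoA, had a log2 fold change of -0.21.

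The Myc targets, mostly genes of ribosome assembly, gave a median log2 fold change of 0.20 with 0 of 16 passing. Of the 16, 11 were above 0 and 5 below. Their groups did not overlap for 5 genes that were higher and 2 that were lower, or 43.8%, near the 40.7% of all rows. Npm1, which encodes the nucleolar protein nucleophosmin, had RPKM values of 493 and 414 in si-SCR and 420 and 703 in si-SMaRT. Its depleted samples lay further apart than the groups. Among the 4 most abundant genes of the list, the log2 fold change was 0.27 for Npm1, -0.21 for the lactate dehydrogenase gene Ldha, -0.04 for the transferrin receptor gene Tfrc and -0.32 for Bop1, a ribosome assembly factor.

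Ccl2 and Ccl7, chemokines of the myokine class, were taken from the study, which names them as genes that MLX upregulates. It singles them out for their rise upon lnc-SMaRT depletion, so their direction is not independent evidence. The study also reported their upregulation by qPCR, with separate siRNAs against lnc-SMaRT. Ccl7 had RPKM values of 3.45 and 2.03 in si-SCR and 7.41 and 9.59 in si-SMaRT. It rose, with a log2 fold change of 1.63 (SE 0.31, adjusted p = 0.0232), where 0.18% of all rows rose. Ccl2 had RPKM values of 5.49 and 4.04 in si-SCR and 10.3 and 13.6 in si-SMaRT, with a log2 fold change of 1.31 (SE 0.29) and an adjusted p of 0.0528. Both depleted samples exceeded both controls for each gene. Ccl7 did not pass without si-SCR replicate 1 (adjusted p = 0.0876), without si-SCR replicate 2 (adjusted p = 1.00) or with quantile normalization (adjusted p = 0.0565), and its adjusted p lay between 4.08e-12 and 1.00 over 15 settings. Ccl2 passed with the GC trend removed (adjusted p = 0.00574), with a range of 6.52e-10 to 1.00 over 15 settings. These were the largest log2 fold changes among the 54 listed genes tested, of which Ccl7 alone passed.

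**Figure D4:**
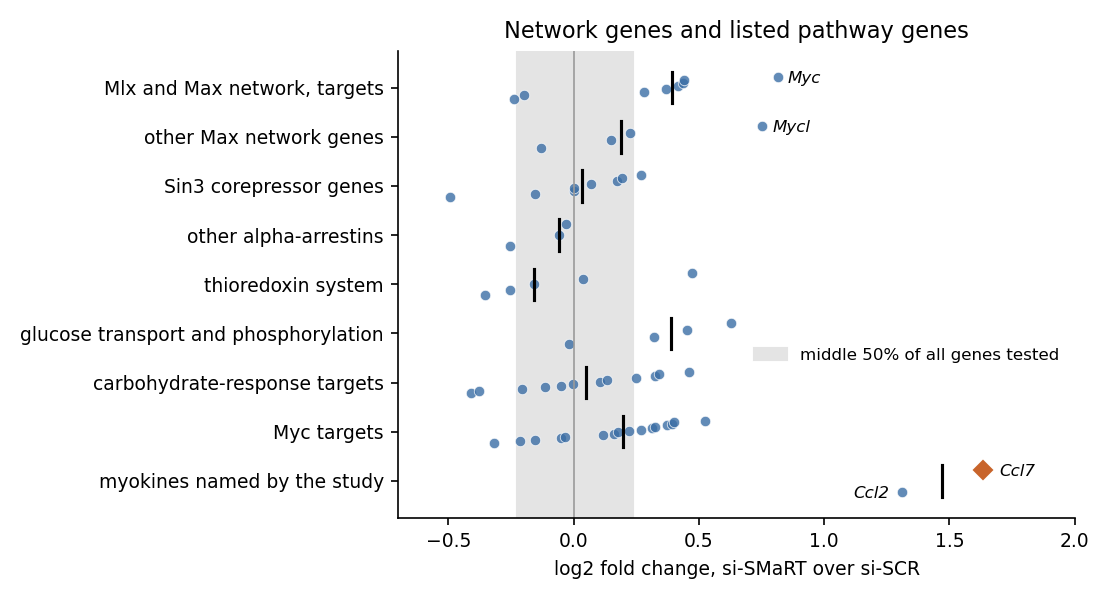
Log2 fold change of si-SMaRT over si-SCR, 1 point per tested gene by list, with a black bar at each list's median, an orange diamond for an adjusted p under 0.05 and grey for the middle 50% of all genes. Ccl7 (1.63) is the only diamond, and Myc (0.81) and Mycl (0.75) lie apart from their own lists.

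The genes closest to Mlx in pattern were found by centring the log2 values of each gene on its mean and taking the smallest root mean square difference over the 4 samples. They were Dscr3 (0.0134), Nubpl (0.0138) and Idh3b (0.0144), all with a higher si-SCR 1 and nearly equal si-SMaRT samples. For Txnip they were Eid2 (0.0197), Ptgr1 (0.0198) and Zfp3 (0.0237). With 4 samples this measure describes a shape and nothing more.

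Among the 10 genes, pull-down peaks were found on Mlx. The study selected Mlx from transcripts whose exons overlapped lnc-SMaRT peaks and no peak of LacZ over input. Neither the lnc-SMaRT peaks on Mlx nor its lack of LacZ peaks is therefore independent evidence. The share of all genes that hold a peak was not computed. The lnc-SMaRT list held 345 peaks and the LacZ list 336, and 2 lnc-SMaRT peaks overlapped exons of Mlx on its strand, while 0 peaks of either list overlapped the other 9 genes and 0 LacZ peaks overlapped Mlx. The first Mlx peak, chr11:101088601-101088800, had a p of 0.00296 from the authors' peak caller and covered 104 exonic bases. The second, chr11:101091001-101091400, had a p of 0.00154 and covered 292 exonic bases, the coding end of the last exon and part of the 3′ UTR. Both were gone at a p below 0.001. There was 1 library per pull-down, so the peaks have no replicate check among the sequenced samples. In further experiments the study recovered Mlx mRNA by RT-PCR with both probe sets and by qPCR after psoralen crosslinking. Mlx was also the most abundant of the 8 genes in the control cells, and the part of its level in the peaks was not tested.

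The coding bases under the peaks are shown because they are the coding part of Mlx mRNA that the lnc-SMaRT peaks cover, on the plus strand of GRCm38.p6. They belong to exon 4 (chr11:101088601-101088704) and exon 8 (chr11:101091109-101091162) of the Mlx-γ transcript ENSMUST00000017945, which has 8 exons and 1965 bases.
Exon 4: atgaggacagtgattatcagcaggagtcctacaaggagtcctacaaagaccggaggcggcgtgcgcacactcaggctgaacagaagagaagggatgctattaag
Exon 8: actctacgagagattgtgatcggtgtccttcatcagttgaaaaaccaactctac

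The Mlx-γ transcript has a longer first exon than the transcripts of the other isoforms, and the study examined a G-quadruplex there. A search for 4 runs of at least 3 G with loops of 1 to 7 bases found 1 such stretch in the 1965 bases, beginning at base 98 (chr11:101087397-101087413, exon 1), with its G runs in capitals. It is held by 2 of the 7 annotated Mlx transcripts.
Mlx-γ: GGGGaGGGcGGGtcGGG

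Neither peak covered this stretch. The peaks began 1188 and 3588 genome bases after its end, in exons that the 3 coding transcripts drawn in the map share. The study also describes complementarity to lnc-SMaRT in the 3′ UTR common to its Mlx isoforms. The second peak covered part of the 3′ UTR, and whether it covered that region was not examined. The RPKM of Mlx sums over its transcripts, so the values above say nothing about Mlx-γ alone.

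**Figure D5:**
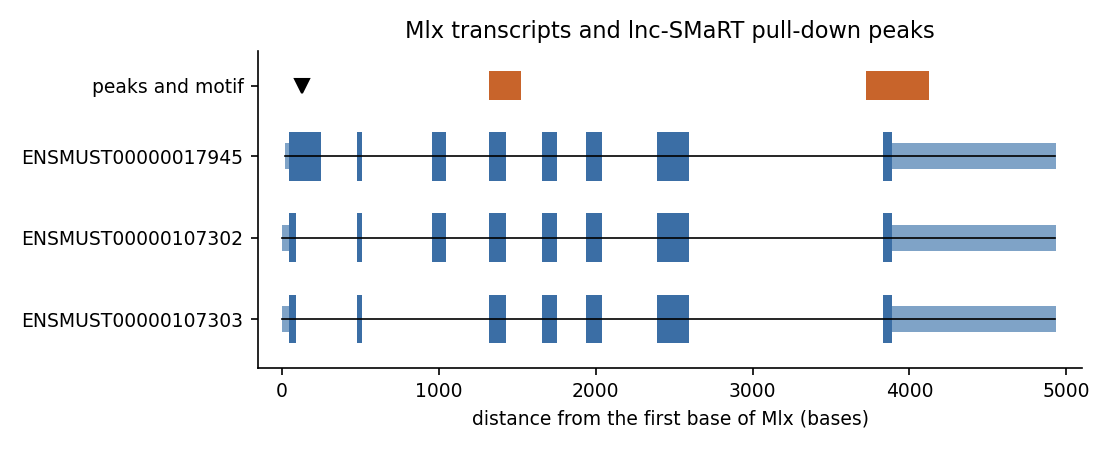
Map of 3 coding Mlx transcripts by distance in bases from the first base of the gene, with thick boxes for coding exons and thin boxes for UTRs. Orange boxes mark the 2 lnc-SMaRT pull-down peaks (1324 to 1523 and 3724 to 4123 bases from the start) and the triangle the G-rich stretch in the first exon of the upper transcript, Mlx-γ.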

How the data were processed

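The authors used Trimmomatic for trimming, Bowtie2 against rRNA and tRNA, TopHat2 for alignment to GRCm38 and HTSeq for counts on Ensembl 77, and deposited TMM-scaled RPKM values from edgeR, without genes of low expression. The deposited p-value of each peak came from the authors' Piranha calls in bins of 200 bases, and the lists do not state against which background. limma 3.58.1 (R 4.3.3) tested log2(RPKM + 0.1) over rows whose mean RPKM reached 0.5, with a trended prior, Benjamini-Hochberg adjustment and a threshold of 0.05, so fold changes of low genes are understated. Whole reads were recovered from the RPKM steps of 11641 of 11642 rows (lower limits where the common factor was not fixed, as for 6 of the 8 genes), and intervals cover the spread between samples. GC trends were removed per sample by loess (span 0.3). The fit and the recovery of reads were tested on simulated data.

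All 10 genes were named, with lnc-SMaRT, listed genes past the threshold, up to 4 per list by mean RPKM, Ccl2, Ccl7 and the 3 genes nearest in pattern to Mlx and Txnip. Slc2a3 and Slc2a4, both under the filter, and the markers Myod1, Myog, Ckm, Acta1, Tnnt3 and Mki67 were named outside this rule, after their values were seen. The genes and lists were chosen with earlier results of these data known. Alternatives were other pseudocounts (1 and 0.01), filters, quantile normalization, no trend, blocks, voom and each sample left out.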

Additional observations from a re-analysis of the deposited data

How the results depend on the processing

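Precision is limited by 2 samples per group and by the gap between the si-SMaRT samples along GC content. The count of all genes past the threshold, 56 as reported, was 37 with quantile normalization, 103 with voom on recovered reads, 530 with the GC trend removed and 24 to 2908 when 1 sample was left out. Samples with the same number deviated in opposite ways (correlation -0.36 across genes, -0.16 with the GC trend removed). This cannot decide whether they share a population, and the number was not taken as a pairing in the main fit. With the replicate number as a block the count was 96, and with a crossed block, chosen after the deviations of same-numbered samples were seen, it was 487. Of the 8 genes, 0 passed as reported and with the replicate block, 1 (Myc) with the GC trend removed, 0 with that and the replicate block (adjusted p of Myc 0.0904, limma), 1 with the crossed block and 0 to 2 with 1 sample left out. Of the listed genes, 1 passed as reported, 2 with a pseudocount of 1, 2 where the mean RPKM had to reach 5, 0 with quantile normalization, 3 with the GC trend removed, 2 with that and the replicate block, 2 with the crossed block and 0 to 10 with 1 sample left out. With 1 sample left out, the log2 fold change of Txnip lay between -0.43 and 0.0315, above 0 only without si-SCR replicate 1. The 2 peaks on Mlx became 0 at a p below 0.001 and remained 2 on either strand or with introns. The other 7 settings kept the count of the 8 genes at 0, with fewer of them tested where the mean RPKM had to reach 5. The causes of these changes were not tested.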
